A study of Mus musculus with 4 samples.

Results

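The genes described here are 10 markers of the adult crypt base stem cell, Olfm4, Ascl2, Smoc2, Rgmb, Lrig1, Prom1, Mex3a, Cdca7, Gkn3 and Hopx, in organoids of the mouse small intestine. They were taken by symbol from a list of crypt stem cell markers that leaves out the LGR receptors, and all 10 were found among the 55416 genes of the deposited tables. Poly-A selected RNA was sequenced from 2 libraries of organoids grown from the small intestinal epithelium of C57BL/6 adults (4 to 8 weeks old) and from 2 libraries of organoids grown from C57BL/6 embryos at E15.5. Both kinds of organoid were kept in the same commercial medium (IntestiCult) in a basement-membrane gel (Matrigel), and no other treatment or genotype is given. The labels do not say whether the libraries of a group came from separate animals or cultures, so every p-value here reflects library-to-library spread alone, and that spread may be technical. The estimated counts per library lay between 10862147 and 13061585.

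The crypt base holds slender columnar stem cells that divide under Wnt and Notch signals and renew the adult epithelium. Olfm4, Smoc2 and Ascl2 belong to the set of genes known from the Lgr5-positive stem cell. Lrig1 and Hopx have been used to mark slower or reserve stem cells, and Mex3a a slowly dividing fraction of the Lgr5-positive cells. Intestinal epithelium of the fetus is known to grow in culture as round spheroids that carry a stem cell programme different from that of the adult crypt.

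The markers separated into 3 groups by the size of the difference. Olfm4, Rgmb, Smoc2 and the scarcely expressed Gkn3 were lower in fetal organoids by at least 4-fold, and Lrig1, Hopx, Prom1, Cdca7 and Mex3a were lower by less than 2-fold. Ascl2 did not pass the test. In all, 9 of 10 markers were lower in fetal organoids and 0 were higher (quasi-likelihood test of edgeR, p adjusted by Benjamini-Hochberg, threshold 0.05), where 32.7% of the 14271 tested genes were lower, 33.9% were higher and 66.5% were called in either direction. With limma on log2(TPM + 1), a length-scaled abundance, 5 markers were lower and 1 higher (Ascl2), where 1796 of 14013 tested genes were lower and 6957 higher. Ascl2 was also higher in edgeR with library totals alone. The count of higher markers was 0 with DESeq2 and, in the main edgeR fit, at an unadjusted p under 0.05. Falls of at least 4-fold were found in 4 of 10 markers and in 5.72% of tested genes; 1 of the 4, Gkn3, was tested only because of its adult counts, and without fetal replicate 1 its log2 fold change was -1.96 and was not called (edgeR adjusted p = 0.0509). The median log2 fold change was -0.89 over the markers and 0.01 over all tested genes. Since whole organoids were sequenced, fewer cells of a type and less RNA per cell cannot be told apart.

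The starts of 3 of these genes are shown first, Olfm4 and Rgmb because they had the largest falls and Ascl2 because it did not fall. Each line gives the 250 bases before the RefSeq transcription start in build GRCm38.p6, read 5′ to 3′ on the strand of the gene, with the letters TGGGAA in capitals. The windows are chr14:80000052-80000301 on the plus strand, chr17:15826567-15826816 on the minus strand (for Rgmb, 1 of 3 listed starts) and chr7:142969265-142969514 on the minus strand.
Olfm4: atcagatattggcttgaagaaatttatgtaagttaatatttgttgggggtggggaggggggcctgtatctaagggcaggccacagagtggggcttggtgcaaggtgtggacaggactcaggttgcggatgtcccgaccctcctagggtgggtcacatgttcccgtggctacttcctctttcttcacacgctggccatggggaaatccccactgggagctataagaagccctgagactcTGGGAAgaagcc
Rgmb: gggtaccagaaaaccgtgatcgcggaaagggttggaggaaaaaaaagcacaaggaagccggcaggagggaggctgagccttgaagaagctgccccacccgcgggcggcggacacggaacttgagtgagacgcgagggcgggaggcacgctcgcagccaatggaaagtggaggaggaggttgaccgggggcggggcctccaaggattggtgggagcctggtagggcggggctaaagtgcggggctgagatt
Ascl2: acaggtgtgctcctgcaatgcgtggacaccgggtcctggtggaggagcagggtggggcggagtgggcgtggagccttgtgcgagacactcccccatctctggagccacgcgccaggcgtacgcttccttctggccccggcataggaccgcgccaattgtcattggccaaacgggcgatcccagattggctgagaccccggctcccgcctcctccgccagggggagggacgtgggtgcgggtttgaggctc

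RefSeq start windows of 250 bases were listed for 9 of the 10 markers, 13 windows in all; Smoc2 had no entry. TGGGAA, a core of the site of the Notch effector RBPJ, was searched on both strands and stood in 3 of the 13 windows, where 21.6% of 32851 windows in the table hold it. In Olfm4, known as a Notch-dependent gene, it began 12 bases before the start. The others were the second Prom1 window, with the match 116 bases before the start, and the Cdca7 window, with the match 227 bases before it. None of the 13 windows held CTTTGAT, the core of a TCF/LEF site (3.21% of all windows), CAGCTG, an E-box (13%), or GGAATG, a TEAD core (12.6%), on either strand. A match describes letters in these windows only, and no factor binding was measured here.

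Among the 10 markers, Olfm4, a secreted glycoprotein of the olfactomedin family, had the largest fall. Levels are given as CPM, counts relative to the library total, scaled with edgeR's TMM factors. Olfm4 stood at 557 and 562 CPM in the adult libraries and at 21.6 and 25.4 CPM in the fetal libraries. Both adult libraries lay far above both fetal ones, a 23.9-fold difference of the means, 559.9 ± 3.51 against 23.5 ± 2.66 CPM (SD, n = 2). The log2 fold change was -4.58 ± 0.05 (SE; edgeR, Benjamini-Hochberg adjusted p = 4.47e-15), and 1.5% of tested genes had a lower value.

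Rgmb, a membrane-anchored co-receptor for bone morphogenetic proteins (BMPs), stood at 182 and 178 CPM in adult and at 16.8 and 16.3 CPM in fetal organoids. Both adult libraries lay above both fetal ones, an order found in 40.8% of tested genes. The adult mean was 10.9-fold above the fetal one (log2 fold change -3.44 ± 0.06 SE, edgeR adjusted p = 9.62e-14). Smoc2, a secreted calcium-binding matrix protein, stood at 403 and 395 CPM in adult and at 59.5 and 64.6 CPM in fetal organoids. Its adult mean was 6.42-fold higher (log2 fold change -2.69 ± 0.04 SE, edgeR adjusted p = 5.35e-14). Smoc2 had the smallest fall of these 3 genes.

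Gkn3, a secreted gastrokine known mainly from the stomach, was rare in both kinds of organoid, with 12 and 14 counts in adult and 2 and 4 counts in fetal libraries. These are 1.05 and 1.41 CPM against 0.140 and 0.305 CPM. The ratio of the summed counts was 5.57 (exact 95% Clopper-Pearson interval 2.24 to 16.5, which covers counting error only). The edgeR call (log2 fold change -2.42 ± 0.56 SE, Benjamini-Hochberg adjusted p = 0.00204) was lost without fetal replicate 1 (adjusted p = 0.0509). Gkn3 passed the filter on low counts through its adult libraries alone, so that a tested Gkn3 had to be higher there.

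Lrig1, Hopx, Mex3a, Prom1 and Cdca7 had smaller falls than Olfm4, Rgmb and Smoc2. Lrig1, a transmembrane protein that restrains receptors of the epidermal growth factor family, stood at 194 and 196 CPM in adult and at 102 and 101 CPM in fetal organoids, a 1.92-fold difference (log2 fold change -0.94 ± 0.04 SE, edgeR adjusted p = 3.29e-10). Hopx, a small homeodomain-only protein that does not itself bind DNA, stood at 104 and 106 CPM in adult and at 61.6 and 55.3 CPM in fetal organoids. The adult mean of Hopx was 1.79-fold higher (log2 fold change -0.84 ± 0.06 SE, edgeR adjusted p = 7.16e-08). Mex3a, an RNA-binding protein, stood at 25.1 and 23.3 CPM in adult and at 17.7 and 17.6 CPM in fetal organoids, 1.37-fold apart (log2 fold change -0.46 ± 0.09 SE, edgeR adjusted p = 0.000675). In Lrig1, Hopx and Mex3a both adult libraries lay above both fetal ones, as they did in 40.8% of tested genes.

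Prom1 and Cdca7 were well measured in both kinds of organoid, with at least 1005 counts in each library. Prom1 (CD133), a glycoprotein of membrane protrusions, stood at 256 and 248 CPM in adult and at 172 and 181 CPM in fetal libraries, 1.43-fold apart (log2 fold change -0.51 ± 0.04 SE, edgeR adjusted p = 9.22e-08). Cdca7, a nuclear protein that acts with the chromatin remodeller Hells in dividing cells, stood at 118 and 114 CPM in adult and at 88.7 and 76.5 CPM in fetal libraries. That was a 1.40-fold difference, with the wider spread between the fetal libraries (log2 fold change -0.49 ± 0.06 SE, edgeR adjusted p = 2.42e-05).

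Ascl2, the basic helix-loop-helix factor that sets the crypt stem cell programme under Wnt control, did not fall with the other markers. It had 69 and 62 counts in adult and 101 and 94 counts in fetal libraries, or 6.05 and 6.23 CPM against 7.06 and 7.16 CPM. Both fetal libraries lay above both adult ones, by 1.16-fold in the mean, and the difference did not pass the test (log2 fold change 0.21 ± 0.17 SE, edgeR adjusted p = 0.29). For 9 of 10 markers both adult libraries lay above both fetal ones, as they did in 40.8% of tested genes. The opposite order, seen in Ascl2, held for 41.9% of tested genes.

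**Figure D1:**
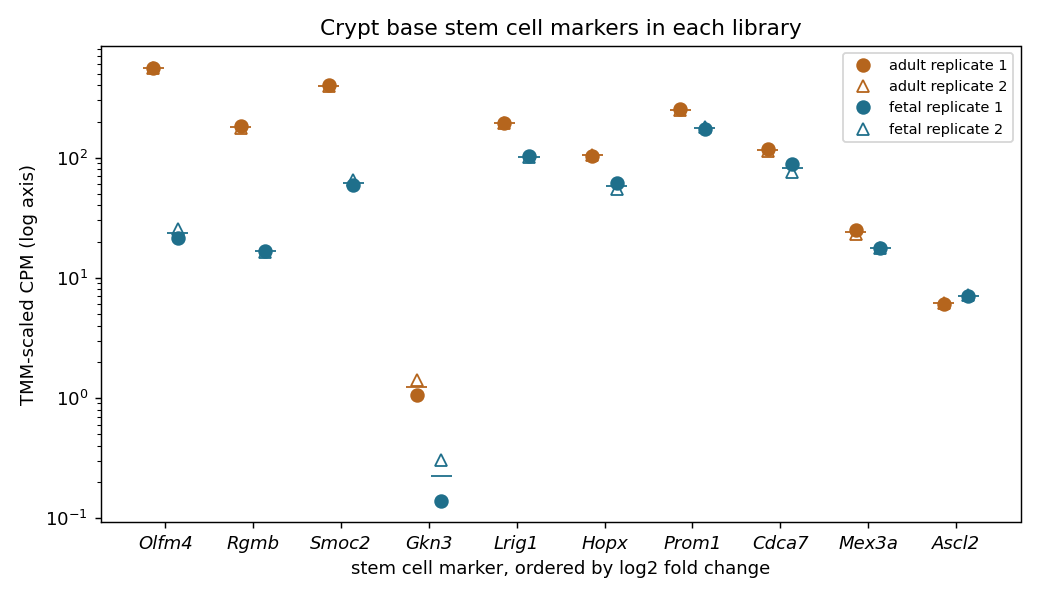
TMM-scaled CPM (log axis) of the 10 markers in the 2 adult (brown) and 2 fetal (blue) libraries, with a short line at each group mean and markers ordered by log2 fold change. The gap between the groups runs from 559.9 against 23.5 CPM in Olfm4 to 6.14 against 7.11 CPM in Ascl2, the marker at which fetal libraries are the higher ones.

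How small falls are called depends on the scaling. Mitochondrial transcripts took 17.5% and 17.6% of adult and 6.98% and 7.82% of fetal counts. They were left out of 1 further edgeR fit with TMM, together with the 20 most abundant genes. In that fit 9 markers were called lower and 0 higher, and the median log2 fold change over the markers was -0.89. The part of mitochondrial transcripts on their own was not tested. The log2 fold change of the median gene was 0.01 under TMM, 0.25 when only library totals were used, and 0.36 with limma on log2(TPM + 1), where TPM is a transcript abundance scaled for gene length. Called genes divided into 4833 higher and 4664 lower with TMM, 6979 and 2973 with library totals, and 6957 and 1796 on log2(TPM + 1). With limma on log2(TPM + 1), 5 markers were lower (Olfm4, Rgmb, Smoc2, Gkn3 and Hopx) and 1 was higher, Ascl2, at 0.51 ± 0.11 SE (limma adjusted p = 0.0136). On that scale Lrig1, Prom1, Cdca7 and Mex3a had log2 differences of -0.39, -0.12, -0.10 and -0.06 and were not called (limma adjusted p = 0.0589, 0.207, 0.341 and 0.705). With library totals Ascl2 was also higher (log2 fold change 0.46 ± 0.17 SE, edgeR adjusted p = 0.0295) and Mex3a was not called (adjusted p = 0.0562). Taken relative to the median of all genes, Ascl2 was above it in each of 14 settings, by 0.13 to 0.23. Gkn3 was below the median in each of the 13 settings in which it was tested, and each of the other 8 markers was below it in all 14. Subtracting the median largely cancels a change of scaling, and the settings reuse the same libraries. The sameness of these values is therefore no test of the scaling.

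**Figure D2:**
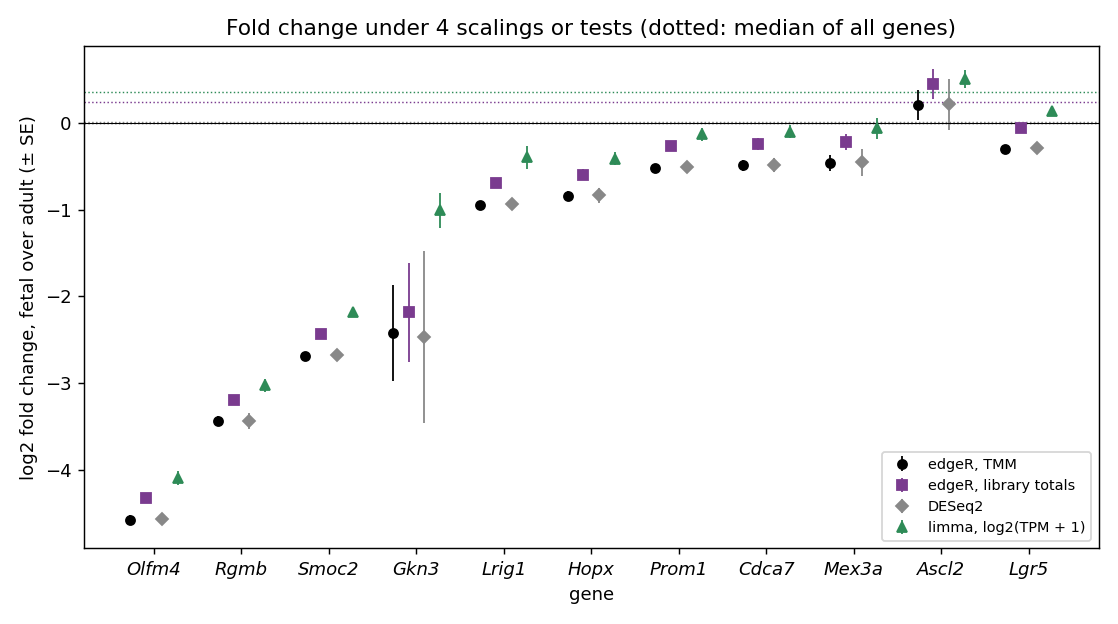
Log2 fold change, fetal over adult, with its standard error, for the 10 markers and Lgr5 under edgeR with TMM, edgeR with library totals, DESeq2 and limma on log2(TPM + 1); dotted lines mark the median of all genes in each. Olfm4, Rgmb and Smoc2 stay below -2 on each scale, whereas the values of Prom1, Cdca7 and Mex3a come within 0.15 of 0 on the TPM scale, where the median gene is at 0.36.

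Levels can be compared between genes only per length, so the order of the markers is given in TPM. In adult organoids Olfm4 led with 247 ± 0.495 TPM (SD, n = 2), ahead of Smoc2 with 193 ± 2.42 TPM, Hopx with 117 ± 0.141 TPM, Prom1 with 103 ± 8.28 TPM and Cdca7 with 81.7 ± 0.686 TPM. Rgmb and Lrig1 followed at 49.6 ± 1.07 and 48.9 ± 0.00707 TPM, and these neighbours overlapped between libraries. Mex3a (5.11 ± 0.290 TPM), Ascl2 (4.82 ± 0.0707 TPM) and Gkn3 (1.89 ± 0.382 TPM) were the scarce members.

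In fetal organoids the order changed. Prom1 led with 94.4 ± 4.17 TPM, and its libraries overlapped those of Hopx at 88.0 ± 8.27 TPM. Cdca7 was the next at 76.6 ± 7.41 TPM, and Smoc2 and Lrig1 overlapped at 41.6 ± 0.445 and 37.3 ± 7.11 TPM. Olfm4 moved from rank 1 to rank 6, at 13.5 ± 1.27 TPM. Ascl2, at 7.31 ± 0.0636 TPM, ranked above Rgmb, at 5.21 ± 0.0495 TPM, and Mex3a, at 4.87 ± 0.106 TPM, whereas in adult organoids Rgmb had stood far above both.

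The summed TPM of the 10 markers was 854 and 849 in adult and 387 and 351 in fetal libraries. Olfm4, Smoc2 and Rgmb together made up 57% and 58% of this sum in adult and 15.3% and 17.5% in fetal libraries. Prom1, Hopx and Cdca7 made up 35.9% and 34.9% in adult and 70.5% and 69.7% in fetal libraries. The share of Ascl2 was 0.559% and 0.573% in adult and 1.90% and 2.07% in fetal organoids. These shares and the ratios that follow are given as a description, without a test; an exact two-sided permutation test of 2 against 2 libraries cannot give a p below 0.33.

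**Figure D3:**
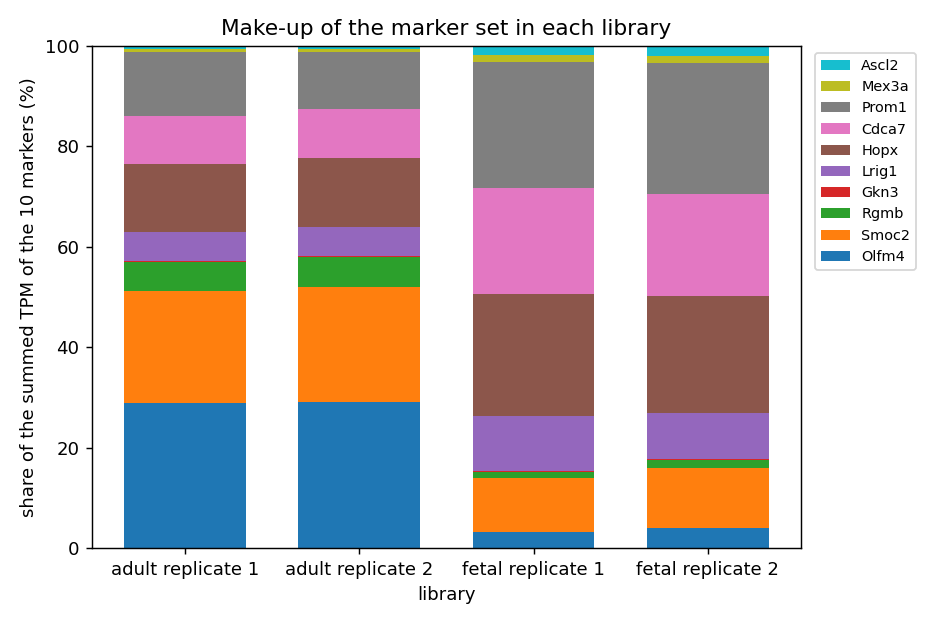
Stacked bars of the share of each marker (%) in the summed TPM of the 10 markers, for each of the 4 libraries. Olfm4 takes 28.9% and 29.1% in the adult bars and 3.26% and 4.11% in the fetal bars, while Prom1, Hopx and Cdca7 fill most of the latter.

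Lgr5, the R-spondin receptor that defines the crypt base columnar cell, gives a reference within each library that does not depend on scaling. Lgr5 itself stood at 80.8 and 77.6 TPM in adult and at 86.3 and 88.2 TPM in fetal libraries. In TMM-scaled CPM it was lower in fetal organoids (log2 fold change -0.30 ± 0.03 SE, edgeR adjusted p = 5.37e-06), and on log2(TPM + 1) the difference had the opposite sign and did not pass (0.14 ± 0.05 SE, limma adjusted p = 0.0643). Olfm4 was at 3.06 and 3.19 times the TPM of Lgr5 in adult and at 0.146 and 0.164 times in fetal libraries, a 20.1-fold lower ratio. Rgmb went from 0.605 and 0.649 to 0.0599 and 0.0594 of Lgr5, and Smoc2 from 2.36 and 2.50 to 0.479 and 0.476.

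For Prom1, Cdca7 and Mex3a the ratio to Lgr5 differed little: the adult mean was 1.20, 1.17 and 1.15 times the fetal mean. It was 1.44 times for Lrig1 and 1.46 times for Hopx. Ascl2 was at 0.0591 and 0.0627 of Lgr5 in adult and at 0.0852 and 0.0824 in fetal libraries, the reverse order. The ratios of the 9 other markers were higher in both adult libraries. In CPM that order held for 40.8% of tested genes, and the share of genes for ratios to Lgr5 was not computed. Against Epcam, a membrane protein of epithelial cells, the ratios of Prom1, Mex3a and Cdca7 overlapped between the groups, while Olfm4 was 18.2-fold lower in fetal organoids and Ascl2 1.53-fold higher.

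**Figure D4:**
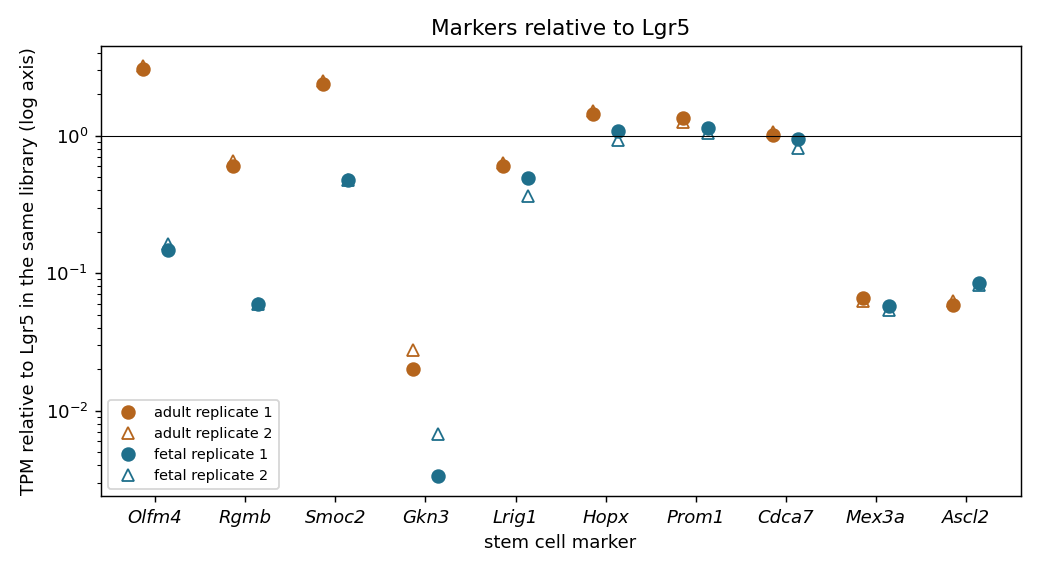
TPM of each marker divided by the TPM of Lgr5 in the same library (log axis), for 2 adult (brown) and 2 fetal (blue) libraries; the line marks a level equal to Lgr5. Olfm4 and Smoc2 lie above the line in adult libraries (3.06 and 2.36 in replicate 1) and below it in fetal ones (0.146 and 0.479), and Ascl2 is the marker with higher fetal ratios.

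The 2 deposited tables together show how long RSEM took each transcript mix to be, since counts divided by TPM follow the effective length of a gene. These lengths were set relative to the median of 8580 genes with at least 100 counts in every library. Lrig1 had a relative length of 2.00 and 2.01 in the adult libraries, 1.63 in fetal replicate 1 and 2.05 in fetal replicate 2. The log2 difference of 0.33 between its fetal libraries exceeded in size that of 97.5% of genes, and fetal Lrig1 was 42.4 and 32.3 TPM although its CPM differed little. Rgmb was the one marker outside the central 90% of genes between groups, with relative lengths of 1.87 and 1.78 in adult and 2.19 and 2.04 in fetal libraries (log2 ratio 0.21; 5th to 95th percentile of genes, -0.17 to 0.15). For the 6 other markers with enough counts the log2 ratio between groups lay from -0.07 to 0.02. Ascl2 and Gkn3 had too few counts, and which isoforms are meant is not given in the files.

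Other genes known from crypt base or reserve stem cells moved in both directions. Of 25 such genes, Lgr5 included, 16 were lower and 7 higher in fetal organoids and 2 were not called (edgeR, adjusted p under 0.05), with a median log2 fold change of -0.62; of all tested genes 32.7% were lower and 33.9% higher. On log2(TPM + 1), 12 were lower and 9 higher (limma), where 1796 of 14013 tested genes were lower and 6957 higher. With library totals, 14 were lower and 9 higher, where 2973 of 14271 tested genes were lower and 6979 higher. Slc14a1 passed the filter through its adult libraries alone. Aqp4, a water channel, stood at 358 and 361 CPM in adult and at 2.10 and 4.11 CPM in fetal libraries. Esrrg, an orphan nuclear receptor, and Slc14a1, a urea transporter, were also lower, with log2 fold changes of -5.41 ± 0.16 and -5.38 ± 0.23 SE (edgeR adjusted p = 1.81e-11 and 5.13e-10). Tnfrsf19 (Troy), a surface receptor of Lgr5-positive cells, went the other way, from 3.24 and 2.41 CPM to 136 and 136 CPM (log2 fold change 5.57 ± 0.10 SE, edgeR adjusted p = 1.21e-13). Phlda1, a protein with a pleckstrin-homology-like domain, was higher as well (log2 fold change 1.95 ± 0.06 SE, edgeR adjusted p = 3.01e-11).

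Of 19 family relatives of the markers, 18 were matched to the tables and 10 passed the filter, of which 7 were lower and 3 higher, beside 32.7% lower and 33.9% higher among all tested genes. Smoc1, the relative of Smoc2, had 0 counts in both adult libraries and 60 and 71 in the fetal ones, so that it was at least 17.0-fold higher in fetal organoids (against a floor of 3 counts per library). Smoc2 and Smoc1 thus differed in opposite directions, and fetal Smoc1 stood at 1.98 and 2.49 TPM beside 41.3 and 41.9 TPM of Smoc2. Gkn1, a relative of Gkn3, had 0 counts in adult and 18 and 12 in fetal libraries, at least 3.85-fold higher. Smoc1, Gkn1 and Prom2, the third relative that was higher, passed the filter through their fetal libraries alone. Some lower calls were small and are named after their values were seen. Lrig2, Mex3d, Cdca7l and Mex3c had edgeR log2 fold changes of -0.39, -0.29, -0.25 and -0.23. In mean TPM Mex3d went from 8.74 in adult to 8.81 in fetal organoids, Cdca7l from 26.2 to 28.6 and Mex3c from 30.9 to 34.5. Mean TPM of Lrig2 went from 4.87 to 4.36. Olfm1 and Lrig3, relatives of Olfm4 and Lrig1, were lower (log2 fold changes -2.27 ± 0.35 and -1.16 ± 0.10 SE, edgeR adjusted p = 0.000102 and 3.67e-07). Mex3b was also lower (log2 fold change -0.85 ± 0.33 SE, edgeR adjusted p = 0.0374), a call that was lost on leaving out adult replicate 1, adult replicate 2, fetal replicate 1 or fetal replicate 2 (adjusted p = 0.289, 0.0528, 0.133 and 0.102) and with DESeq2 (adjusted p = 0.182).

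Of 13 genes whose products act directly with a marker, 6 were higher, 6 lower and 1 not called; all tested genes also divided about evenly, 33.9% higher and 32.7% lower. Neo1, the receptor bound by Rgmb, was lower, at 203 and 195 CPM in adult and 120 and 121 CPM in fetal libraries (log2 fold change -0.72 ± 0.04 SE, edgeR adjusted p = 5.05e-09). Of the BMP ligands that Rgmb binds, Bmp2 was higher (log2 fold change 1.04 ± 0.20 SE, edgeR adjusted p = 0.000608), and Bmp4, with 0 counts in adult and 16 and 28 in fetal libraries, was at least 5.76-fold higher, having passed the filter through its fetal libraries alone. Tcf4, an E protein and partner of Ascl2 in DNA binding, and Erbb3, a receptor of the family that Lrig1 restrains, were lower by 0.56 and 0.37 on the log2 scale in edgeR. On log2(TPM + 1) neither was called, with log2 differences of -0.0044 and 0.017 (limma adjusted p = 0.974 and 0.85). Egfr, Erbb2 and Met, the other receptors listed for Lrig1, went the other way. In edgeR they were higher by 0.65, 0.40 and 0.32 on the log2 scale, and they were chosen after their values were seen. Hells, the partner of Cdca7, chosen after its values were seen, was higher by 0.12 ± 0.04 SE on the log2 scale (edgeR adjusted p = 0.0203).

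The genes with the pattern most like that of Olfm4 over the 4 libraries, by distance of centred log2 CPM among 8911 genes, were Lrrc19, Slc3a1 and Mlxipl (distances 0.11, 0.11 and 0.13). Slc3a1, a subunit of an amino acid transporter, stood at 51.8 and 52.1 CPM in adult and at 1.54 and 2.13 CPM in fetal libraries. Mlxipl, a sugar-responsive transcription factor, stood at 156 and 165 CPM and at 6.50 and 7.31 CPM. With 2 groups of 2 libraries, such a distance reflects mostly the size of the difference between the groups. A small value was added to CPM before the log, which shrinks that difference in scarce genes. Lrrc19, the nearest gene, stood at 0.769 and 0.990 CPM in fetal libraries. Its edgeR log2 fold change was -5.26, beside -4.58 in Olfm4.

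Markers of other cells moved with these results, and their part in the results was not tested. For each list the 2 genes with the most counts over the 4 libraries together are named, and the order within a group can differ. Epithelial genes were detected in all libraries: the summed level of 8 such genes was 4453 and 4458 CPM in adult and 6977 and 7009 CPM in fetal organoids, Krt8 and Krt19 among them. The 8 genes moved in both directions: 4 were higher, 3 lower and 1 not called, beside 33.9% higher and 32.7% lower among all tested genes. The lower ones, named after their values were seen, were Epcam, Vil1 and Cldn7 (edgeR log2 fold changes -0.38, -0.15 and -0.17). Of 26 markers of enterocytes, Paneth, goblet and enteroendocrine cells, 24 were lower and 2 higher in fetal organoids. Among all tested genes 32.7% were lower and 33.9% higher. Of the 24 lower markers, 3 (Lct, Gip and Tph1) passed the filter through their adult libraries alone. The 2 that were higher, named after their values were seen, were Mmp7, a matrix protease of Paneth cells (6.19 and 74.2 CPM in the adult and fetal means), and Clca1, a goblet cell product (1.24 and 5.92 CPM). The summed level of 8 enterocyte genes, Sis and Fabp2 among them, went from 1335 and 1340 CPM to 44.7 and 46.7 CPM, and that of 6 Paneth genes, Itln1 and Defa17 among them, from 1619 and 1647 CPM to 263 CPM in both fetal libraries. The 6 goblet genes, Fcgbp and Muc2 among them, summed to 2186 and 2275 CPM in adult and 286 and 302 CPM in fetal libraries, and the 6 enteroendocrine genes, Chgb and Chga among them, to 442 and 442 CPM and 20.6 and 23.5 CPM. Copies of the defensin family share reads, so Defa17 is uncertain.

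In contrast, all 6 genes known from revival or fetal-like stem cells were higher in fetal organoids, where 33.9% of all tested genes were higher. Of the 6, 1 passed the filter through its fetal libraries alone. Ly6a (Sca-1), a surface antigen, went from 8.06 and 6.33 CPM to 323 and 305 CPM (log2 fold change 5.43 ± 0.07 SE, edgeR adjusted p = 1.86e-14). Anxa1, a phospholipid-binding protein, went from 28.1 and 27.2 CPM to 519 and 512 CPM. Mesenchymal genes summed to 5.08 and 5.52 CPM in adult and 68.6 and 66.5 CPM in fetal organoids. Beside 33.9% higher among all tested genes, 6 of 7 tested mesenchymal genes were higher, Col3a1 and Col1a1 among them. Of these, 5 (Col1a1, Col1a2, Col3a1, Pdgfra and Dcn) passed the filter through their fetal libraries alone and could only be called higher. In adult, 4 of 8 mesenchymal genes were at 0 counts. Tuft cell genes summed to 4.56 and 3.92 CPM in adult and 3.21 and 3.35 CPM in fetal libraries, Avil and Pou2f3 among them.

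Stomach, blood and vessel markers were scarce. The 6 matched gastric genes, bearing on Gkn3 as a stomach gene, summed to 0.175 and 0.402 CPM in adult and 1.75 and 1.29 CPM in fetal libraries, Tff1 and Muc5ac among them. Among immune markers Ptprc had 1 count in the 4 libraries together and Cd3e had 0, and Cd68, also known from the lysosomes of other cells, was at 1.99 CPM in adult and 7.14 CPM in fetal organoids (Adgre1 had 2 counts in 1 fetal library). Endothelial genes summed to 0.904 CPM or less in each library, Pecam1 and Tek among them.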

How the data were processed

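RNA of 4 organoid libraries, 2 adult and 2 fetal, was analysed from 2 deposited tables. The first holds expected counts (estimated counts) per Ensembl gene, not normalized, per the file headers. The second holds TPM, in which the authors corrected for gene length and set all libraries to 1 total. Named in the submitters' processing notes are RSEM 1.3.3, STAR 2.7.3a, Trim Galore and FastQC, with the builds GRCm39 and mm10. The build, annotation release and strand setting behind the tables are not given in the sources used here, so genes carry no coordinates except the RefSeq start windows (GRCm38.p6), and antisense or overlapping genes are uncertain. Symbols were matched by Ensembl identifier in a gene name table (52083 of 55416 identifiers; Hjv and Muc6 were not matched).

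Expected counts were rounded and tested with edgeR 4.0.16 (R 4.3.3): filterByExpr by group, TMM factors, then the quasi-likelihood F-test between the groups, without covariates. P-values were adjusted by Benjamini-Hochberg over all 14271 tested genes, and genes under 0.05 are called higher or lower. Standard errors of log2 fold changes are the fold change divided by the root of F. Fold changes against a group at 0 use a floor of 3 counts per library, 0.210 to 0.301 CPM; they cover counting error alone, as do intervals, because the labels name no molecular identifiers and reads are then not independent molecules. Alternatives were DESeq2 1.42.0, limma 3.58.1 on log2(TPM + 1) and log2(TPM + 0.1) for genes with at least 1 TPM in 2 libraries, other scalings, other filters, a replicate block and each library left out. Some of these steps were also run on simulated counts: edgeR with TMM, DESeq2 size factors, library totals or a replicate block, DESeq2, and limma on log2(TPM + 1). The other filters, log2(TPM + 0.1) and the left-out libraries were not. Few genes were changed in the simulation, so it does not cover a difference as wide as the one in these data.

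Libraries of a group differed by more than sampling noise (chi-square per degree of freedom 3.30 in adult and 2.81 in fetal); neither pair was treated as a repeat deposit of 1 library, and the spread may still be technical. The markers and lists were chosen with earlier results of these data known. Genes named beside the 10 markers and Lgr5 were taken by a rule. Per supporting list, they are the called genes with the largest changes, at 1 CPM or more. Up to 3 were taken in the more frequent direction and up to 2 in the opposite one. Also taken were the 2 genes of each cell type list with the highest level over all libraries. The 3 genes nearest to Olfm4 were added. The same rule asked for the nearest genes of the called marker with the largest rise, but no marker was called higher with TMM. Any other gene was chosen after its values were seen. A gene that the rule takes is not reported here.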

Additional observations from a re-analysis of the deposited data

How the results depend on the processing

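The counts of called genes and the log2 fold changes of the markers, Lgr5 and the other named genes that were tested were recomputed under 13 alternatives. The count of lower markers, 9, was 5 with limma on log2(TPM + 1) and on log2(TPM + 0.1); the count of higher markers, 0, was 1 with these and with library totals. With single libraries left out, each of the 9 lower markers kept a negative log2 fold change. That of Olfm4 ran from -4.71 to -4.46, and that of Ascl2 from 0.19 to 0.23. Tested genes numbered 14271 with TMM and with library totals, and 14013 on both TPM scales. Of all tested genes, 4664 were lower, against 2973 with library totals, 1796 on log2(TPM + 1) and 1752 on log2(TPM + 0.1), where 6979, 6957 and 6821 were higher instead of 4833. All these alternatives move the median gene upward. The sign turned in Lgr5 (0.14 on log2(TPM + 1) and 0.14 on log2(TPM + 0.1)) and in Erbb3 (0.017 and 0.017), in neither case with a limma adjusted p below 0.05 (0.0623 to 0.85); the cause was not tested. Of the other values for the 47 tested named genes, 569 kept their direction and call, 25 lost the call and 4 gained one. At least 1 CPM in 2 libraries left Gkn3 untested. The replicate number as a block gave 9 lower and 0 higher markers, and 9349 called genes against 9497; the deviations of same-numbered libraries did not correlate (-0.02 over genes), so the numbers are not taken as pairs. The depth limits Gkn3, and with it the size of its fall: with single libraries left out, its log2 fold change ran from -3.05 to -1.96.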
